A study of Homo sapiens with 48 samples.

Results

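The subject is a set of 85 genes whose RNA was higher after knockdown of UPF1 in every one of 8 cell lines, whatever form of UPF1 the line carried. The members were chosen by measured values, namely their response to siUPF1 in these same libraries. Counts were scaled by the total of each library to CPM, and a response was defined for each line as the log2 ratio of mean siUPF1 CPM to mean siNT CPM, each with 0.5 CPM added. Genes were kept when their mean over the 48 libraries was at least 5 CPM and their response was at least 0.8 in all 8 lines. Of 57820 genes in the table, 11924 had that mean level and 88 of these (0.738%) passed in all lines. The rule leaves out certain gene names, which removed SRPR, ARC and HIST1H2AE, and 85 members remained.

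Flp-In 293 T-REx cells were used, a derivative of human embryonic kidney HEK293 cells with a fixed genomic site that receives transgenes. The 7 lines WT, K498A, DE636AA, R843C, A546H, GA-KH and E797R stably expressed CLIP-tagged UPF1, wild type or with the change in the line's name, while the control line, CLIP, carried the tag without UPF1. Every line also had its endogenous UPF1 gene and was transfected with 40 nM of an siRNA against UPF1 (siUPF1) or of a non-targeting siRNA (siNT) and harvested 72 h later. There were 3 libraries of rRNA-depleted total RNA per line and siRNA, described by the submitters as biological replicates, which makes 48 libraries in 16 groups. No group was left without an siRNA, so a higher level with siUPF1 and a lower level with siNT cannot be told apart. Whether each line was a clone or a pool of cells is not given in the sources used here.

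UPF1 is an RNA helicase driven by ATP hydrolysis and the central factor of nonsense-mediated decay (NMD), which removes mRNAs whose translation ends too early, along with many normal mRNAs. When UPF1 is depleted, direct targets of NMD accumulate, and an active UPF1 supplied from a transgene would be expected to bring them back down. An siRNA can in addition lower transcripts that pair with its seed, a short stretch near the 5′ end of its guide strand, in the manner of a microRNA. The members were grouped only by a minimum on their measured response in every line. Whether they form a class separate from genes that the wild-type transgene brings back was not tested.

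Library totals were 21.3 to 47.1 M expected counts. The CLIP siUPF1 library of replicate 2 stood apart: mitochondrially encoded genes took 0.631% of its counts, against 1.53% to 2.92% in the other 47 libraries. It was the highest of the 3 CLIP siUPF1 libraries for 53 members and the lowest for 20. Differences from CLIP of the genes described one by one are therefore also given without it, as the fit of 47 libraries. Of 7 genes that mark HEK293 cells, NEFL (172 to 480 CPM), SALL1 (44.4 to 69.6 CPM) and INA (22.7 to 66.6 CPM) were clearly present. EYA1 (7.09 to 19.2 CPM), PAX2 (2.37 to 9.12 CPM) and LHX1 (2.42 to 6.12 CPM) were lower, and NEFM stayed between 0.823 and 2.72 CPM. Among markers of other cells, COL1A2, KRT5, PTPRC, HBB and CDH5 had a median of 0 CPM, and EPCAM was present at 63.1 to 98.6 CPM. PDGFRB and ALB had medians of 0.08 and 0.06 CPM. COL3A1 (2.63 to 13.4 CPM), CD68 (3.03 to 8.61 CPM), CDH1 (0.79 to 7.29 CPM) and COL1A1 (0.99 to 4.79 CPM) were low, in the range of PAX2 and LHX1.

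UPF1 itself, in which transgene and endogenous reads are counted together, averaged 23.6 ± 10.5 CPM in CLIP siUPF1 libraries and 108 ± 3.29 CPM in CLIP siNT libraries (SD, n = 3 each). It fell by 2.17 ± 0.17 on the log2 scale in CLIP (edgeR quasi-likelihood test, adjusted p = 4.83e-13). In WT it averaged 4794 ± 940 CPM with siUPF1 and 5293 ± 290.2 CPM with siNT (SD, n = 3 each), a log2 difference of -0.13 ± 0.16 (edgeR, adjusted p = 0.622). Mean UPF1 levels with siUPF1 in the other 6 UPF1 lines lay between 3918 CPM in R843C and 7425 CPM in DE636AA. Thus the members were high with siUPF1 both in the line where total UPF1 RNA was low and in lines where it was far above the level in CLIP siNT libraries.

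The median response of the 85 members was 1.07 in DE636AA and GA-KH, 1.08 in K498A, 1.09 in WT, 1.10 in R843C, 1.11 in A546H, 1.12 in E797R and 1.32 in CLIP. The median over all genes of the same level lay between -0.01 and 0.03 in each line, and a response of 0.8 was reached by 1.83% of them in GA-KH, 1.95% in WT, 2.12% in E797R, 2.26% in K498A, 2.36% in A546H, 2.41% in DE636AA, 2.78% in R843C and 7.25% in CLIP. These responses chose the members, so they are given as a description and were not tested. CLIP gave the highest response for 46 members. Without the CLIP siUPF1 library of replicate 2, the CLIP median was 1.17 and CLIP gave the highest response for 30 members. A member's responses differed by a median of 0.454 between its highest and lowest line, and by less than 0.5 for 48 members. ARHGDIA, which holds small GTPases inactive in the cytosol, varied least (0.122) and DHRS2, a short-chain dehydrogenase, most (1.41).

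The members' libraries hardly overlapped. In 678 of 680 pairs of a member and a line all 3 siUPF1 libraries were above all 3 siNT libraries, against 24.4% (WT), 25.6% (E797R), 27.8% (CLIP), 28.4% (GA-KH), 29.1% (DE636AA), 29.7% (A546H), 31% (K498A) and 36.6% (R843C) of all genes of that level. The 2 exceptions were VPS26A and UBE2D1 in CLIP. For 80 members all 24 siUPF1 libraries were above all 24 siNT libraries, which held for 4.42% of all genes of that level. The 5 others were COL12A1, ENPP5, VPS26A, SMIM20 and UBE2D1. The rule used these same libraries, so nothing is read from these shares. The members just inside the threshold were STS (lowest response 0.81), RPLP0P6 (0.81) and PLBD2 (0.80), and the genes just outside it were CDV3, ATG9A and CDK16 (0.80, 0.79 and 0.79).

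**Figure D1:**
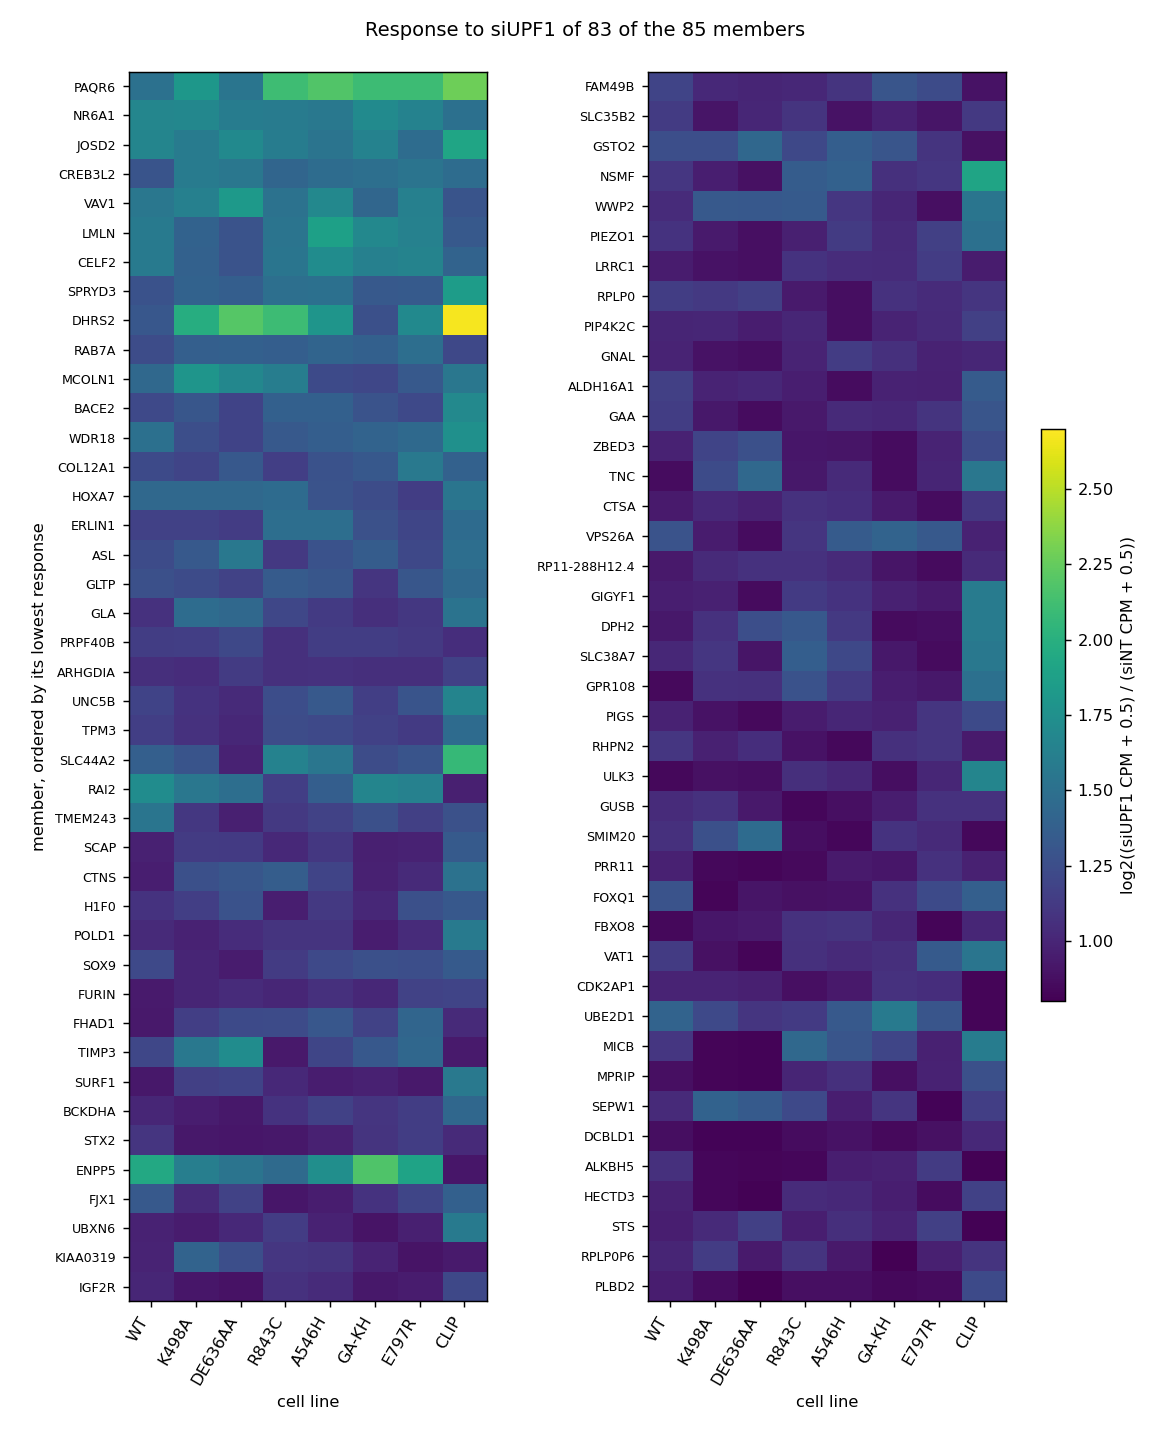
Colour map of the response of 83 of the 85 members (down the page, in 2 columns, ordered by their lowest response) in each line (across), as the log2 ratio of mean siUPF1 to mean siNT CPM with 0.5 added. Every cell is at or above 0.8 by construction; DHRS2 in CLIP is the highest at 2.68.

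A short sequence was found more often in the 3′ untranslated region (3′ UTR) of members than of other genes of the same level. The 3′ UTRs of GENCODE release 29 (GRCh38) were available for 83 members and for 10892 other genes that averaged 5 CPM or more, the longest one being taken for each gene. The 8-base word AGCAACCA was present in 14 members (16.9%) and in 303 other genes (2.78%), read on the transcript strand. Counting also its 7-base parts AGCAACC and GCAACCA, 34 members (41.0%) and 1347 other genes (12.4%) had a site. Median 3′ UTR length was 1400 bases in members and 1524 bases in the other genes. In coding sequence the same sites were present in 21.7% of members and 18.1% of other genes.

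The word was picked after the values were seen, from a scan of all 6-, 7- and 8-base words for those more frequent in members' 3′ UTRs, so its excess there is a description and was not tested. GCAACCA (28.9% of members, 7.48% of other genes) and AGCAACC (28.9% and 8.13%) had the highest excess of all 7-base words. The next one was CAGCCCC (39.8% and 22.0%). The sites of 6 members that appear in the results are shown with the bases around them, with the word in capitals; each lies in the 3′ UTR, coordinates are GRCh38, and the strand is that of the gene.
RPLP0, chr12:120196745-120196774, minus strand: aatcaccaaaaAGCAACCAacttagccagt
IGF2R, chr6:160108490-160108519, plus strand: ggagacgcttcAGCAACCAgatgggaggtt
CTSA, chr20:45898447-45898476, plus strand: ctgatgaccacAGCAACCAgctccacggcc
TPM3, chr1:154157310-154157339, minus strand: tgttgttttgtAGCAACCAtttgtaaaaca
CREB3L2, chr7:137879697-137879726, minus strand: ggcttcctgctAGCAACCAcactgaagaga
ENPP5, chr6:46160482-46160511, minus strand: gcctgaatagaAGCAACCAggcaccatctc
In RPLP0 the word starts at base 10 of a 3′ UTR of 87 bases, and in CTSA at base 8 of 370. The other members with the 8-base word were BACE2, WDR18, PIGS, RHPN2, SMIM20, UBE2D1, MPRIP and ALKBH5. Of the 20 members with a 7-base site and no 8-base one, LMLN had 11 sites in a 3′ UTR of 5053 bases and the others, among them RAB7A, RAI2, TIMP3, SOX9 and VPS26A, had 1 each.

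The same sites went with a small shift of genes that are no members. Among these, the median response with an 8-base site was 0.09 in WT and E797R, 0.11 in R843C, 0.13 in GA-KH, 0.14 in K498A and DE636AA, 0.16 in A546H and 0.05 in CLIP (303 genes). For the 8199 genes with no match it lay between -0.02 and 0.01 in the 8 lines. Genes with a 7-base site were between 0.07 and 0.12, and genes with only the 6 bases GCAACC between -0.01 and 0.06. The 8-base and 7-base groups were close in several lines, and in CLIP the 7-base group (0.07) was above the 8-base group (0.05). The groups also differ in length, with a median 3′ UTR of 3606 bases for the 8-base group and 1175 bases for genes with no match.

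**Figure D2:**
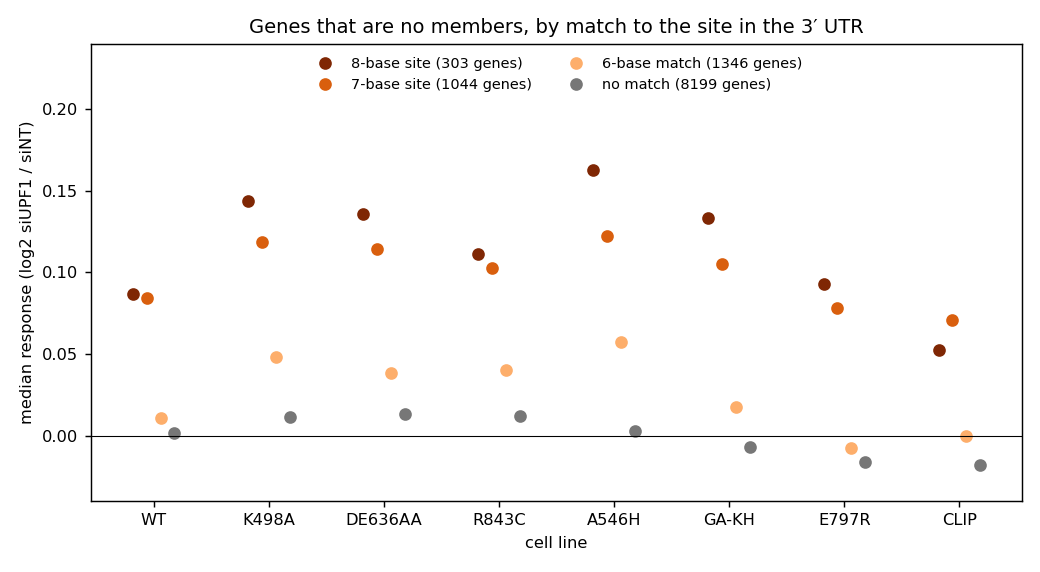
Median response (log2 siUPF1 over siNT) of genes that are no members, in each line, by the longest match to AGCAACCA in the 3′ UTR; each point is the median over the number of genes in the legend. In the 7 UPF1 lines and in CLIP the points with an 8-base or 7-base site lie above those with no match.

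All 11382 7-base words found in the 3′ UTR of at least 500 of these genes were then ordered by the difference in mean response between genes with and without the word. AGCAACC came at place 1 and GCAACCA at place 2 in WT, K498A, DE636AA, A546H, GA-KH and E797R, with differences for AGCAACC of 0.08 (WT) to 0.13 (A546H). In R843C AGCAACC came at place 16 and in CLIP at place 1100, behind words led by GGCCCGG in both. The shift was also there among genes with 3′ UTRs of 1501 to 4000 bases, where the medians in WT were 0.07 with an 8-base site (126 genes), 0.09 with a 7-base site (463 genes) and -0.01 with none (2642 genes). The 7-base group was above the 8-base group there in WT and E797R, and below it in the other lines. With 3′ UTRs of 500 to 1500 bases the WT medians were 0.12 with an 8-base site (29 genes) and 0.15 with a 7-base site (171 genes). With only the 6 bases the WT median was 0.10 (217 genes) and with none 0.00 (2971 genes). In CLIP the 6-base group of that length (0.19) was above the 8-base group (0.15), so the 6-base match was not set apart there. The points share libraries, and every line was treated with the same pair of siRNAs. The sequences of the 2 siRNAs are not given in the sources used here, and the part of such sites in the members' levels was not tested. The 51 members with a 6-base match, no match or no 3′ UTR at hand had median responses of 1.04 in WT and 1.40 in CLIP, and the 34 with a 7- or 8-base site had 1.16 in WT and 1.21 in CLIP.

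**Figure D3:**
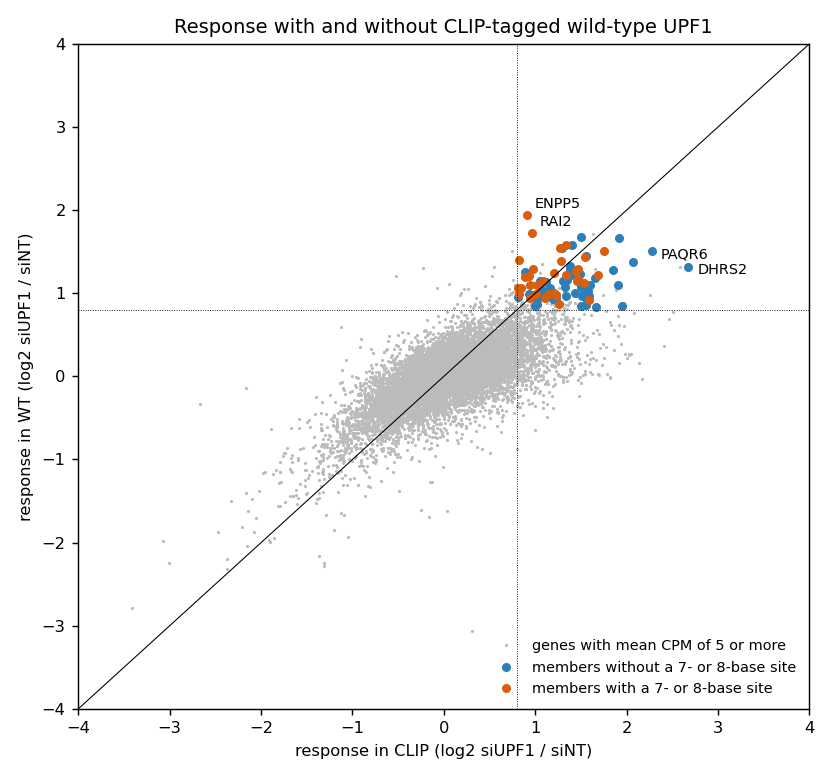
Response in WT (vertical) against response in CLIP (horizontal) for all genes that averaged 5 CPM or more (grey) and for the 85 members with (orange) and without (blue) a 7- or 8-base site; the solid line marks equal responses and the dotted lines the minimum of 0.8. DHRS2 and PAQR6 lie below the line of equal responses and RAI2 and ENPP5 above it.

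By known role, 15 members belong to lysosomes, endosomes and the sorting of proteins to them, 8 to transcription and chromatin, 8 to RNA and protein synthesis, 6 to ubiquitin pathways, 5 to the cytoskeleton and its signalling, 11 to the matrix, channels, receptors and transport across membranes, 13 to metabolism and mitochondria and 4 to kinases, replication and the cell cycle. For 15 no role is given here. These groups were made after the members were known and are loose. The first also holds FURIN, a protease of the trans-Golgi network, STX2, a membrane fusion protein, and BACE2, an aspartyl protease. Their median responses, averaged over lines, ran from 0.99 for the group of kinases and the cell cycle to 1.27 for transcription and chromatin, so that no group stood far from the others. In the sections that follow, log2 fold changes carry the standard error of the edgeR fit and describe the members without a test.

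Among transcription and chromatin genes, NR6A1, an orphan nuclear receptor of germ and embryonic cells, was the steadiest of the strong responders. It had 111, 116 and 53.2 CPM in WT siUPF1 libraries, against 30.6, 32.3 and 23.6 CPM in WT siNT libraries. In CLIP it had 111, 96.8 and 50.7 CPM with siUPF1, against 30.9, 33.2 and 26.2 CPM with siNT. The siUPF1 library of replicate 3 was the lowest of the 3 in all 8 lines, and still no siUPF1 library reached down to the siNT range. Over the 24 siUPF1 libraries NR6A1 ran from 50.7 to 119 CPM with a median of 97.5, against 23.6 to 34 CPM with a median of 29.5 over the 24 siNT libraries. The log2 fold changes were 1.72 ± 0.26 in WT and 1.55 ± 0.26 in CLIP, and its responses over the 8 lines lay between 1.50 and 1.71.

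CREB3L2, a transcription factor anchored in the endoplasmic reticulum membrane and freed by proteolysis, had 134, 142 and 129 CPM in WT siUPF1 libraries, against 51.7, 58.6 and 54.1 CPM in WT siNT libraries. Its CLIP libraries had 145, 124 and 141 CPM with siUPF1, against 46.1, 54 and 47.3 CPM with siNT. The groups were far apart in both lines, and the log2 fold changes were 1.32 ± 0.08 in WT and 1.51 ± 0.08 in CLIP. HOXA7, a homeobox factor of body patterning, had responses of 1.15 to 1.54, and SOX9, a factor of cartilage and gonad development, of 0.95 to 1.34. FOXQ1, a forkhead factor, H1F0, a replication-independent linker histone, and ZBED3 had responses between 0.83 and 1.38 for FOXQ1, 0.96 to 1.32 for H1F0 and 0.86 to 1.27 for ZBED3.

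RAI2, a retinoic acid-induced co-regulator of transcription, was the one member whose response was called higher in WT than in CLIP. It had 22.1, 24.3 and 24.2 CPM in WT siUPF1 libraries, against 7.47, 6.78 and 6.09 CPM in WT siNT libraries. In CLIP the values were 17.1, 15.9 and 15.2 CPM with siUPF1, against 8.08, 7.53 and 8.21 CPM with siNT. The siUPF1 libraries of WT were all above those of CLIP, and the siNT libraries of WT all below. The difference of responses, WT minus CLIP, was 0.77 ± 0.20 (adjusted p = 0.0075) by edgeR's quasi-likelihood test and 0.76, adjusted p = 0.0143, in the fit of 47 libraries. It was also called in GA-KH (0.71 ± 0.20) and in E797R (0.70 ± 0.20), and in both with 47 libraries.

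Among genes of RNA and protein synthesis, RPLP0, the stalk protein of the large ribosomal subunit and a common reference gene for RT-qPCR, had the highest level of all members. It had 1140, 1030 and 1350 CPM in WT siUPF1 libraries, against 538, 468 and 585 CPM in WT siNT libraries. The CLIP line had 1000, 1040 and 1090 CPM with siUPF1, against 486, 447 and 538 CPM with siNT. Over the 24 siUPF1 libraries RPLP0 ran from 918 to 1350 CPM with a median of 1040, against 447 to 627 CPM with a median of 503 over the 24 siNT libraries. The groups did not overlap, and the log2 fold changes were 1.16 ± 0.11 in WT and 1.12 ± 0.11 in CLIP. Its partners in the stalk did not pass the test: RPLP1 had 0.23 ± 0.11 in WT (adjusted p = 0.111) and 0.01 ± 0.11 in CLIP (adjusted p = 0.928) by edgeR, and RPLP2 had 0.22 ± 0.08 in WT (adjusted p = 0.0548) and 0.00 ± 0.08 in CLIP (adjusted p = 0.99). RPLP0P6 is a pseudogene of RPLP0, and reads of the 2 near-identical sequences may be split between them, so RPLP0P6 is uncertain as a member.

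CELF2, an RNA-binding regulator of splicing, had 82.6, 83.2 and 64.5 CPM in WT siUPF1 libraries, against 25.3, 24.9 and 25.5 CPM in WT siNT libraries. Its CLIP libraries had 79.8, 43.9 and 69.5 CPM with siUPF1, against 22, 23 and 27.1 CPM with siNT, and replicate 2 was the lowest of its siUPF1 libraries. The log2 fold changes were 1.63 ± 0.13 in WT and 1.45 ± 0.13 in CLIP. WDR18, which acts in ribosome assembly, had responses of 1.18 to 1.75 over the 8 lines. PRPF40B, a splicing factor, ranged over 1.05 to 1.21 and DPH2, which takes part in the diphthamide modification of elongation factor eEF2, over 0.85 to 1.59. ALKBH5, a demethylase of N6-methyladenosine in RNA, ranged over 0.81 to 1.13, and GIGYF1, of a family of translational repressors, over 0.86 to 1.59.

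The lysosomal and endosomal members include a channel, hydrolases, a receptor that delivers hydrolases and regulators of late endosomes. MCOLN1, the lysosomal cation channel mucolipin, had 13.4, 13.9 and 13.1 CPM in WT siUPF1 libraries, against 4.89, 4.80 and 4.23 CPM in WT siNT libraries. Its CLIP libraries held 14.3, 19.3 and 16.1 CPM with siUPF1, against 5.92, 5.51 and 4.49 CPM with siNT. The groups stayed apart in every line, and the log2 fold changes were 1.56 ± 0.13 in WT and 1.67 ± 0.13 in CLIP. GLA, the alpha-galactosidase lacking in Fabry disease, had 138, 135 and 132 CPM in WT siUPF1 libraries, against 61.9, 61.7 and 69.2 CPM in WT siNT libraries. Its CLIP values were 192, 166 and 220 CPM with siUPF1, against 64.6, 67.9 and 67.6 CPM with siNT. The siNT levels were alike and the siUPF1 levels lower in WT, and the response differed by -0.47 ± 0.12 (adjusted p = 0.00545) between WT and CLIP by edgeR (-0.57, adjusted p = 0.000342 with 47 libraries).

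CTSA, the protective protein of lysosomal sialidase and galactosidase, had 41, 45.8 and 29.9 CPM in WT siUPF1 libraries, against 20.2, 23.4 and 16.5 CPM in WT siNT libraries, with 0.98 ± 0.15 in WT and 1.16 ± 0.15 in CLIP. Its siUPF1 libraries were apart from siNT in all lines. GAA, the acid alpha-glucosidase, had responses of 0.86 to 1.30 over the 8 lines, GUSB, the beta-glucuronidase, of 0.84 to 1.07, CTNS, the cystine exporter of lysosomes, of 0.96 to 1.52, and SLC38A7, a lysosomal exporter of glutamine, of 0.85 to 1.56. PLBD2, a lysosomal protein of the phospholipase B family, was the member closest to the threshold with 0.80 to 1.23.

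RAB7A, the GTPase that directs late endosomes to lysosomes, had 105, 106 and 75.5 CPM in WT siUPF1 libraries, against 39.3, 38.5 and 42.2 CPM in WT siNT libraries. In CLIP it had 117, 82.7 and 122 CPM with siUPF1, against 41.5, 42.2 and 54.6 CPM with siNT. Over the 24 siUPF1 libraries RAB7A ran from 75.5 to 123 CPM with a median of 112, against 36.2 to 54.6 CPM with a median of 41.3 over the 24 siNT libraries. The 2 ranges did not meet, and the log2 fold changes were 1.28 ± 0.13 in WT and 1.25 ± 0.12 in CLIP. IGF2R, the receptor that carries mannose 6-phosphate-tagged hydrolases to lysosomes, had 505, 552 and 406 CPM in WT siUPF1 libraries, against 242, 272 and 215 CPM in WT siNT libraries. Its CLIP values were 573, 716 and 503 CPM with siUPF1, against 256, 277 and 240 CPM with siNT, and it was apart from siNT in every line. VPS26A of the retromer, FURIN, a protease of the trans-Golgi network, STX2, a membrane fusion protein, and BACE2, an aspartyl protease, had responses of 0.86 to 1.40, 0.93 to 1.19, 0.92 to 1.14 and 1.18 to 1.69.

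**Figure D4:**
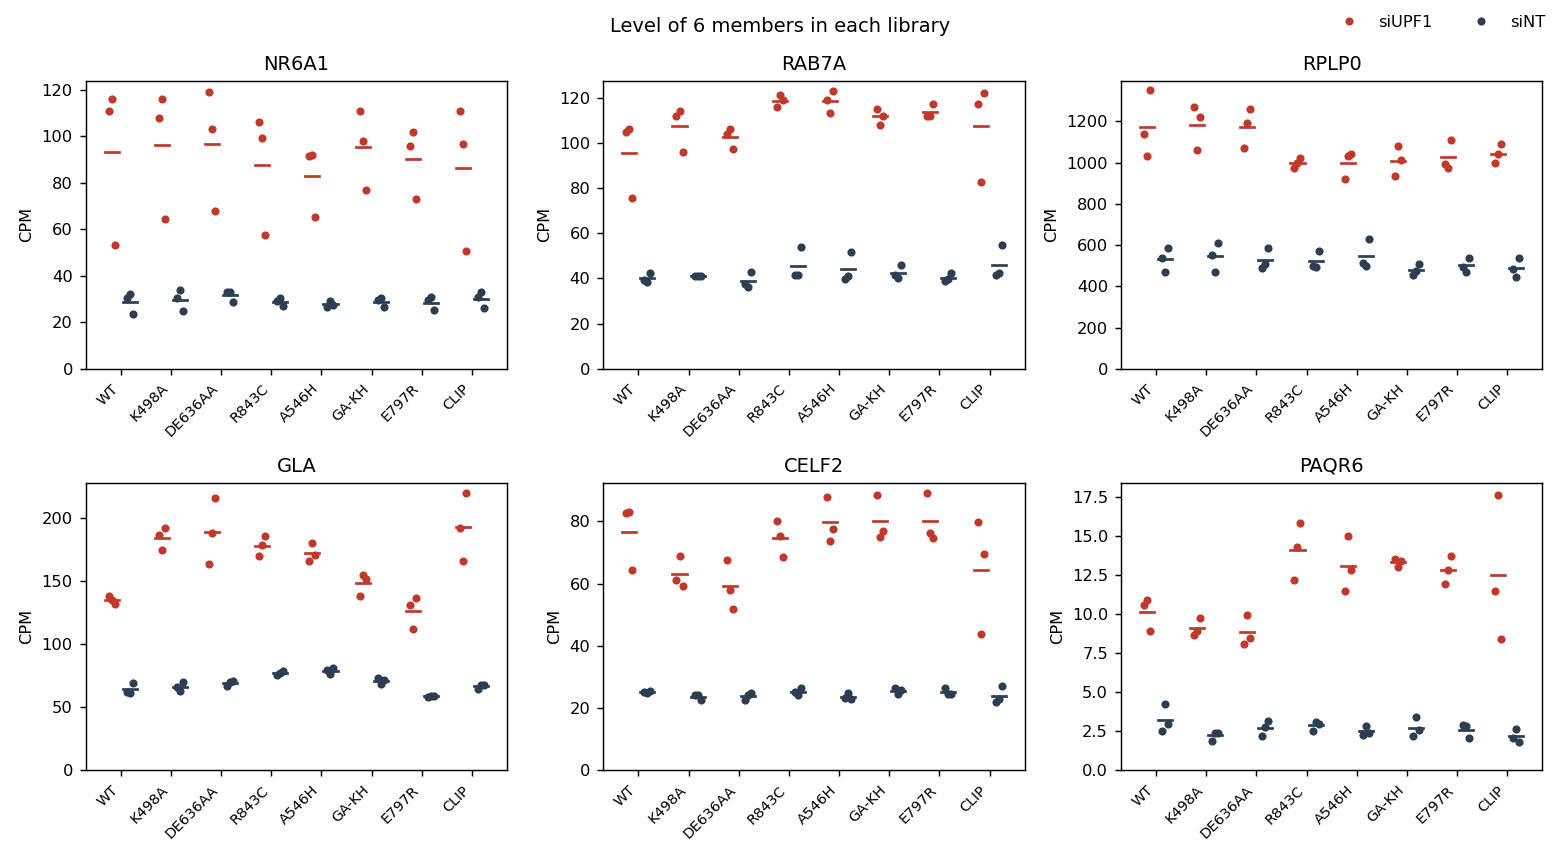
Level in CPM (linear axis from 0) of 6 members in every library, with siUPF1 (red) left of siNT (dark) in each line; points are libraries and bars the means of 3. In each panel all siUPF1 points lie above all siNT points, also in the 7 lines that express a UPF1 transgene.

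Genes of lysosomes that are no members were counted next. A list of 53 lysosomal enzymes and membrane proteins was drawn up after the members were known, and 8 of its 51 tested genes are members, which the rule holds high in every line. Of the 43 others 24 rose and 2 fell in WT (edgeR, adjusted p under 0.05 over all genes), with a median log2 fold change of 0.35, beside 14% of all genes called higher, 13.3% called lower and a median of 0.01. In CLIP 23 of them rose and 7 fell, with a median of 0.28, beside 25.1% and 22.3% of all genes and a median of -0.01. Without the CLIP siUPF1 library of replicate 2, 22 rose and 5 fell in CLIP, beside 21.4% of all genes called higher. Of all genes, 14.5% were called higher in GA-KH, 16% in E797R, 16.2% in K498A, 16.7% in DE636AA, 17.2% in A546H and 17.7% in R843C. Over the 8 lines the number of the 43 that rose lay between 13 in DE636AA and 24 in WT, and the number that fell between 2 in WT and 9 in K498A. With the members, 32 of the 51 rose in WT and 31 in CLIP (30 without that library). Since the list was chosen with these results known, its counts are no independent evidence of its direction.

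Of the genes of the list that are no members, SLC17A5, the sialic acid exporter, rose by 0.95 ± 0.09 in WT and 0.62 ± 0.09 in CLIP (adjusted p = 7.16e-11 and 2.1e-07, edgeR). CTSD, an aspartyl protease, rose by 0.81 ± 0.11 in WT and 1.20 ± 0.11 in CLIP (adjusted p = 3.91e-07 and 1.63e-11, edgeR). CTSH went the other way, with -1.07 ± 0.25 in WT and -1.50 ± 0.26 in CLIP (adjusted p = 0.00119 and 8.94e-06, edgeR). These 3 genes were picked after their values were seen. Of the 5 genes of mannose 6-phosphate tagging and receptors, 4 rose in WT and 4 in CLIP, the member IGF2R among them, none fell, and their medians were 0.87 in WT and 1.24 in CLIP. Of the 4 retromer core genes the member VPS26A and VPS26B rose in both lines, whereas VPS35 had -0.14 ± 0.10 in WT (adjusted p = 0.339) and fell in CLIP (-0.36 ± 0.10, adjusted p = 0.00462, edgeR). In the fit of 47 libraries all 5 genes of the first list rose in CLIP, and of the retromer genes 2 rose and 0 fell.

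**Figure D5:**
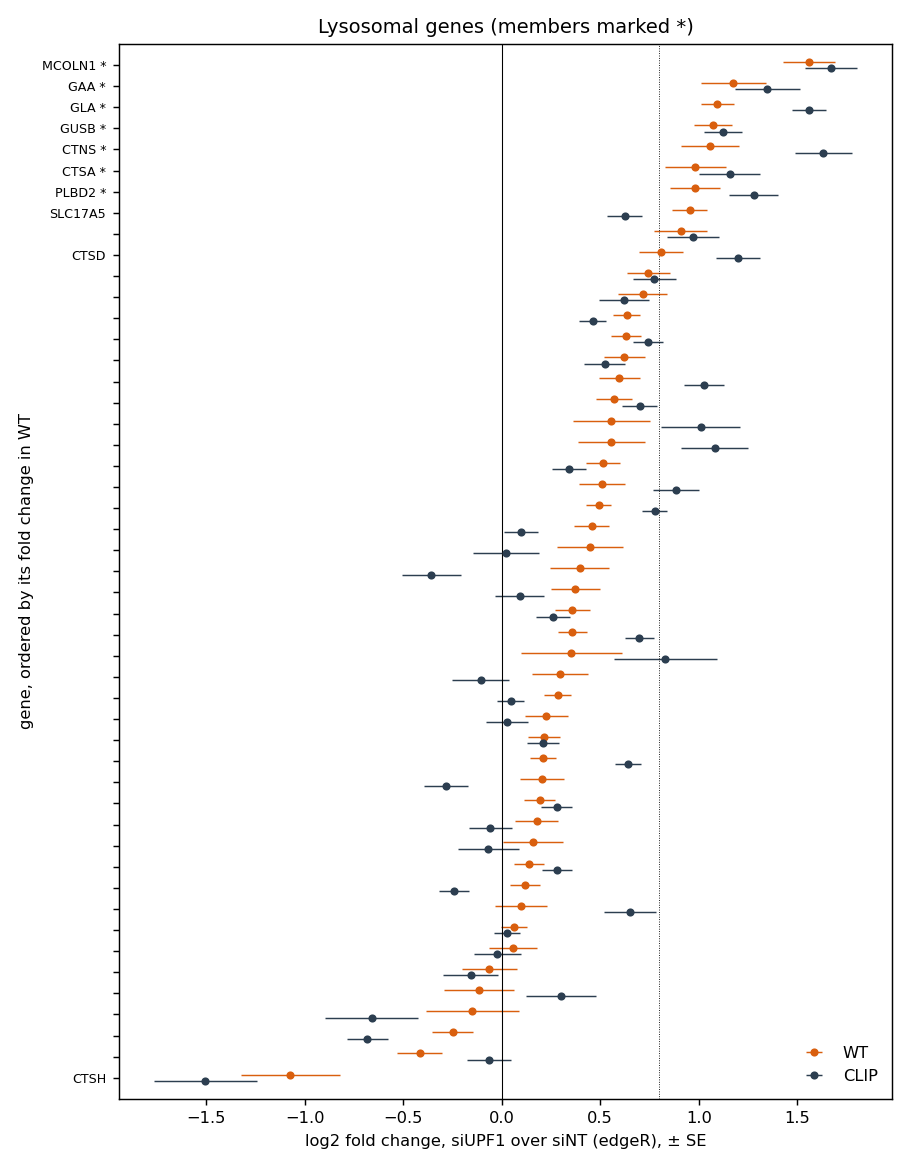
Log2 fold change, siUPF1 over siNT, of 49 lysosomal genes in WT (orange) and CLIP (dark), with bars of 1 standard error of the edgeR fit; 7 members carry an asterisk, only genes named in the text are labelled and the dotted line marks 0.8. The members lie at the top, most other genes lie right of 0 in both lines, and CTSH lies far to the left.

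Promoters were read from RefSeq (GRCh38.p14), from 250 bases before to 50 bases after the start, for 71 members and 9368 other genes of the same level. The E-box CACGTG, which is palindromic and so reads alike on both strands, was present in 19 members (26.8%) and in 10.5% of the other genes. The longer TCACGTGA, the core of the element that factors of the TFEB family bind in genes of lysosomes, was present in 7 members (9.86%) and in 1.99% of the other genes. It contains the E-box, was added after the values were seen, and was present in 20.6% of the 34 promoters of the lysosomal list, members included. The 7 members were MCOLN1, GAA, CTSA, PLBD2, IGF2R, WWP2 and PIP4K2C. Promoters of 2 of them are shown whole, on the strand of the gene, with each E-box in capitals.
MCOLN1, chr19:7522374-7522673, plus strand: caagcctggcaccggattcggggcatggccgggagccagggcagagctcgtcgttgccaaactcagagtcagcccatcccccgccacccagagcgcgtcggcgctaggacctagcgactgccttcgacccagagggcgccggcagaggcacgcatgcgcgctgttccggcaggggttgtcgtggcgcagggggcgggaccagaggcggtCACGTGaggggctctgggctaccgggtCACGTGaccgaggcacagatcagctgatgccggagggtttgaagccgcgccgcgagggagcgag
IGF2R, chr6:159968832-159969131, plus strand: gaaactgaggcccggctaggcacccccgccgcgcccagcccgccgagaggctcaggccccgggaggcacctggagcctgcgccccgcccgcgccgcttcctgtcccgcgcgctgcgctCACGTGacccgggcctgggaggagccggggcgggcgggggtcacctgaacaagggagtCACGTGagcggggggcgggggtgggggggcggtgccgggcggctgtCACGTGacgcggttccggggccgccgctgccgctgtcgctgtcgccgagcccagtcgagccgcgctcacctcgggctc
The MCOLN1 promoter held 2 copies and the IGF2R promoter 3. An E-box of GAA and of PLBD2 is shown with 12 bases on each side.
GAA, chr17:80101493-80101522, plus strand: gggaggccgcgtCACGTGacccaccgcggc
PLBD2, chr12:113358551-113358580, plus strand: gcagagcgcagtCACGTGacccgggctgcg
Other motifs were closer to their share elsewhere: the CCAAT box was present in 42.3% of members and 37.6% of other genes, the CRE TGACGTCA in 4.23% and 3.59%, the AP-1 motif TGANTCA in 4.23% and 3.92%, the TATA box TATAAA in 5.63% and 5.08% and the FOXO motif TGTTTAC in 1.41% and 2.25%. The C/EBP-ATF motif TGATGCAA was in no member promoter and in 0.459% of the others. The GC box GGGCGG was in 83.1% and 71.9%. All motifs were searched on both strands, a match is no evidence of binding, and none of these shares was tested.

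In the ubiquitin group, JOSD2, a deubiquitinase of the Josephin family, had 9.47, 7.83 and 13.5 CPM in WT siUPF1 libraries, against 2.75, 3.07 and 2.87 CPM in WT siNT libraries. The CLIP line had 8.61, 16 and 11.4 CPM with siUPF1, against 3.68, 2.29 and 2.47 CPM with siNT. Its level was low but the groups did not overlap, with log2 fold changes of 1.82 ± 0.19 in WT and 2.13 ± 0.19 in CLIP. The family's other genes moved far less: ATXN3 rose by 0.25 ± 0.08 in WT and 0.29 ± 0.08 in CLIP, and JOSD1 by 0.20 ± 0.07 in WT and 0.40 ± 0.07 in CLIP (edgeR, adjusted p = 0.0104, 0.00199, 0.0377 and 1.99e-05). The ubiquitin ligases WWP2 and HECTD3, the F-box protein FBXO8, the conjugating enzyme UBE2D1 and UBXN6, an adaptor of the segregase p97, had responses of 0.88 to 1.54, 0.81 to 1.17, 0.82 to 1.08, 0.82 to 1.58 and 0.90 to 1.58.

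Among genes of the cytoskeleton, VAV1, an exchange factor for small GTPases known from blood cells, had 7.93, 8.28 and 9.19 CPM in WT siUPF1 libraries, against 2.58, 2.94 and 2.16 CPM in WT siNT libraries. Its CLIP values were 6.24, 5.41 and 6.19 CPM with siUPF1, against 2.24, 2.37 and 1.80 CPM with siNT. These are low levels, at which the 2 groups were still apart, with log2 fold changes of 1.74 ± 0.15 in WT and 1.51 ± 0.15 in CLIP. ARHGDIA had 426, 415 and 524 CPM in WT siUPF1 libraries, against 217, 220 and 218 CPM in WT siNT libraries. Its CLIP libraries held 415, 684 and 436 CPM with siUPF1, against 235, 224 and 225 CPM with siNT, the siUPF1 library of replicate 2 being the highest of all 48. TPM3, a tropomyosin that winds along actin filaments, had 348, 371 and 376 CPM in WT siUPF1 libraries, against 154, 160 and 178 CPM in WT siNT libraries, and 439, 534 and 466 CPM with siUPF1 in CLIP, against 169, 168 and 185 CPM with siNT. The siNT levels of TPM3 were close in both lines, and its response in WT differed from that in CLIP by -0.32 ± 0.11 (adjusted p = 0.0473) by edgeR, a call that was lost with 47 libraries (-0.24, adjusted p = 0.162). MPRIP, which binds myosin phosphatase, and RHPN2 had responses of 0.82 to 1.26 and 0.84 to 1.10.

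PAQR6, a membrane progestin receptor, had the highest floor of all members, with responses of 1.51 to 2.28. It had 10.6, 10.9 and 8.90 CPM in WT siUPF1 libraries, against 2.55, 4.24 and 2.94 CPM in WT siNT libraries. In CLIP it had 11.5, 17.6 and 8.43 CPM with siUPF1, against 2.09, 2.65 and 1.80 CPM with siNT. The response in WT was below that in CLIP by 0.87 ± 0.28 (adjusted p = 0.0323) on the log2 scale (edgeR), but without the CLIP siUPF1 library of replicate 2 the difference was -0.55 (adjusted p = 0.169). Of the 9 genes of its family ADIPOR1 also rose in WT (0.25 ± 0.07) and in CLIP (0.17 ± 0.07), and PAQR4 and ADIPOR2 fell in both (edgeR, adjusted p 0.000452 to 0.0297). PAQR6 overlaps BGLAP and PMF1-BGLAP on the other strand, and the strand setting of the counting is not given in the sources used here.

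SLC44A2, a choline transporter-like protein, had responses of 0.98 to 2.07, the highest in CLIP, and its response in WT differed from that in CLIP by -0.71 ± 0.13 (adjusted p = 0.000156) by edgeR (-0.68, adjusted p = 0.000291 with 47 libraries). Of the other 4 genes of its family none rose in WT or CLIP, and SLC44A5 fell in both, with -0.82 ± 0.17 in WT and -1.22 ± 0.17 in CLIP (adjusted p = 0.000291 and 2.52e-07, edgeR). PIEZO1, a mechanically gated channel, UNC5B, a netrin receptor, COL12A1 and TNC, proteins of the extracellular matrix, and MICB, a stress-induced ligand of immune receptors, had responses of 0.88 to 1.50, 1.02 to 1.66, 1.15 to 1.57, 0.86 to 1.55 and 0.82 to 1.60. SLC35B2, the Golgi transporter of the sulfate donor PAPS, had 0.89 to 1.13 and GNAL, an olfactory G protein subunit, 0.87 to 1.14.

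TIMP3, an inhibitor of metalloproteinases, had its highest responses in DE636AA and K498A. Its siUPF1 level was 69.6 ± 5.81 CPM in WT, 95.5 ± 4.05 CPM in K498A, 114 ± 2.21 CPM in DE636AA and 46.6 ± 2.51 CPM in CLIP (SD, n = 3 each). The siUPF1 libraries of K498A and DE636AA were all above those of WT and CLIP. The response differed from that in CLIP by 0.57 ± 0.14 (adjusted p = 0.00601) in K498A and by 0.73 ± 0.14 (adjusted p = 0.000341) in DE636AA, and by 0.26 ± 0.14 (adjusted p = 0.256) in WT (edgeR). With 47 libraries the differences were 0.59, adjusted p = 0.00823, in K498A and 0.77, adjusted p = 0.000433, in DE636AA (edgeR). With siNT the levels were closer, with 34.4 ± 4.91 CPM in DE636AA and 24.1 ± 2.51 CPM in CLIP (SD, n = 3 each).

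Among metabolic genes DHRS2 was the most variable. It had 5.30, 6.29 and 5.20 CPM in WT siUPF1 libraries, against 1.93, 2.45 and 1.49 CPM in WT siNT libraries. The CLIP line had 18.3, 22.5 and 13.4 CPM with siUPF1, against 1.98, 2.95 and 2.28 CPM with siNT. The siNT levels overlapped and the siUPF1 levels did not, so the response was lower in WT, with a difference of -1.39 ± 0.36 (adjusted p = 0.00765) by edgeR (-1.20, adjusted p = 0.0266 with 47 libraries). Of 11 tested genes of its family, itself included, 5 rose and 1 fell in WT and 4 rose and 1 fell in CLIP, with DHRS13 next in size (0.74 ± 0.15 in WT and 1.40 ± 0.15 in CLIP). ASL, the argininosuccinate lyase of the urea cycle, had responses of 1.12 to 1.56, ERLIN1, a protein of endoplasmic reticulum lipid rafts, of 1.14 to 1.49, GLTP, a glycolipid transfer protein, of 1.09 to 1.45, and SCAP, the escort of sterol-regulated transcription factors, of 0.97 to 1.33.

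The remaining metabolic members had responses at or a little above the minimum in some line. BCKDHA, a subunit of the branched-chain ketoacid dehydrogenase, ranged over 0.92 to 1.44, and SURF1 and SMIM20, which act in assembly of cytochrome c oxidase, over 0.93 to 1.57 and 0.83 to 1.46. GSTO2, an omega-class glutathione transferase, ranged over 0.88 to 1.44, ALDH16A1 over 0.87 to 1.34, and PIP4K2C, a phosphoinositide kinase, over 0.87 to 1.16. PIGS, of the transamidase that attaches glycolipid anchors, ranged over 0.85 to 1.23, and STS, the steroid sulfatase, over 0.81 to 1.16.

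ULK3, a serine/threonine kinase related to the autophagy kinase ULK1, was the 1 member called lower than in CLIP in all 7 UPF1 lines by edgeR. It had 47.6, 50.6 and 54.8 CPM in WT siUPF1 libraries, against 26.7, 29.1 and 29 CPM in WT siNT libraries. Its CLIP libraries held 72, 104 and 78.7 CPM with siUPF1, against 26.5, 26.9 and 26.2 CPM with siNT. The siUPF1 libraries of WT were all below those of CLIP, with a difference of responses of -0.84 ± 0.14 (adjusted p = 2.34e-05) by edgeR (-0.67, adjusted p = 7.97e-05 with 47 libraries, where it was called in all 7 UPF1 lines). In the other lines the difference ran from -0.63 ± 0.14 (adjusted p = 0.011) in R843C to -0.85 ± 0.14 (adjusted p = 2.08e-05) in DE636AA. POLD1, the catalytic subunit of DNA polymerase delta, PRR11, a cell cycle protein, and CDK2AP1, an inhibitor of CDK2, had responses of 0.95 to 1.58, 0.83 to 1.07 and 0.82 to 1.07.

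Of the members without a role here, LMLN, a metallopeptidase related to leishmanolysin, had 28.5, 28.2 and 22.6 CPM in WT siUPF1 libraries, against 8.60, 8.46 and 8.35 CPM in WT siNT libraries. Its CLIP values were 26.4, 18.2 and 23 CPM with siUPF1, against 8.37, 9.59 and 7.99 CPM with siNT. The groups were apart in both lines, and the log2 fold changes were 1.67 ± 0.12 in WT and 1.41 ± 0.12 in CLIP. SPRYD3 had 45.6, 47.5 and 44.7 CPM in WT siUPF1 libraries, against 19.4, 19.2 and 17.2 CPM in WT siNT libraries, and 67.3, 93.3 and 61.5 CPM with siUPF1 in CLIP, against 21.6, 19.1 and 19.6 CPM with siNT. All siUPF1 libraries of WT were below those of CLIP, and the response differed by -0.58 ± 0.15 (adjusted p = 0.0056) by edgeR (-0.39, adjusted p = 0.0305 with 47 libraries).

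ENPP5, of the family of ectonucleotide pyrophosphatases, showed a wide spread among replicates: 26.2, 25.2 and 8.91 CPM in WT siUPF1 libraries, against 4.89, 5.05 and 4.63 CPM in WT siNT libraries. In CLIP it had 16, 5.65 and 6.50 CPM with siUPF1, against 4.22, 5.32 and 4.72 CPM with siNT, so 2 of the CLIP siUPF1 libraries were barely above siNT. The difference of responses, 1.08 ± 0.49 (adjusted p = 0.15) between WT and CLIP, did not pass edgeR's test (0.83, adjusted p = 0.354 with 47 libraries). It was singled out after its values were seen. The others without a role here, TMEM243, FHAD1, FJX1, KIAA0319, NSMF, LRRC1, DCBLD1, FAM49B, GPR108, VAT1, SEPW1 and RP11-288H12.4, had mean responses over lines between 0.88 (DCBLD1) and 1.22 (NSMF). RP11-288H12.4 is an unnamed locus without an entry in GENCODE 29 and is uncertain.

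The members' responses in each UPF1 line were next compared with those in CLIP. Each UPF1 form is in 1 line, so an effect of the transgene and another difference between lines cannot be told apart. In WT 18 members had a lower and 1 a higher response than in CLIP (edgeR interaction, adjusted p under 0.05 over 19129 genes), or 22.4% of the members beside 11.9% of all genes (8.08% lower and 3.77% higher). In K498A 15 were lower and 1 higher, beside 13.6% of all genes (9.57% lower and 4.02% higher). In DE636AA 19 were lower and 2 higher, beside 17.9% (11.6% lower and 6.32% higher). In R843C 1 was lower and 0 higher, beside 0.753% (0.643% lower and 0.11% higher). In A546H 7 were lower and 1 higher, beside 5.63% (4.03% lower and 1.6% higher). In GA-KH 16 were lower and 2 higher, beside 14.3% (9.44% lower and 4.85% higher). In E797R 15 were lower and 2 higher, beside 13.3% (8.52% lower and 4.75% higher). These 7 comparisons share the CLIP libraries. The median difference of the members ran from -0.25 in K498A to -0.17 in WT, against -0.03 to 0.03 over all genes. These medians rest in part on the CLIP siUPF1 library of replicate 2. Without it the members' median response in CLIP was 1.17 instead of 1.32. The rule holds every response at or above 0.8, so a member could not lose its whole response in any line. It sets no upper limit. Of all genes that averaged 5 CPM or more, 7.25% reached 0.8 in CLIP, against 1.83% in GA-KH to 2.78% in R843C. These same responses chose the members, so the members' shares and medians are a description and no independent evidence of a lower response. For 55 members no line was called different from CLIP, which does not show that their responses were equal.

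Over the 7 UPF1 lines 30 members were called in at least 1, of which 25 had a lower and 5 a higher response than CLIP. That is 35.3% of the members, beside 27.4% of all genes called in at least 1 of the lines. Without the CLIP siUPF1 library of replicate 2 it was 24 members (28.2%), beside 22% of all genes. Called lower in 6 lines were SLC44A2, UBXN6 and DPH2, and in 5 lines SPRYD3, BACE2, NSMF and GPR108, among others. Several of these counts rest on that library: without it SLC44A2 was still called lower in 6 lines and BACE2 and NSMF in 5, but DPH2 in 4, GPR108 in 3, UBXN6 in 2 and SPRYD3 in 1. The 5 with a higher response were RAI2 and TIMP3 in 3 lines each and LMLN, GSTO2 and UBE2D1 in 1 line each. Without that library RAI2 and TIMP3 were again called higher in 3 lines each and GSTO2 in 5, and LMLN and UBE2D1 in 0. In the same fit the members called either way numbered 17 in WT, 15 in E797R, 14 each in K498A, DE636AA and GA-KH, 4 in A546H and 2 in R843C. The shares of all genes called in it were 10.2% in WT, 10.9% in E797R, 10.6% in K498A, 14% in DE636AA, 10.1% in GA-KH, 4.22% in A546H and 0.942% in R843C, so the members' share was near that of all genes in DE636AA and A546H. Leaving replicate 1, 2 or 3 out of every group gave 6 to 16 in WT, 3 to 16 in E797R, 7 to 13 in GA-KH, 4 to 14 in K498A, 9 to 21 in DE636AA, 1 in A546H and 0 in R843C, the lowest of each range without replicate 2 where they differ.

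The levels with siNT alone were compared in the same way. Between UPF1 lines and CLIP, both with siNT, the edgeR test called 0 members in WT, K498A, R843C, A546H, GA-KH and E797R, beside 0.0314%, 0.0366%, 0.0889%, 0.125%, 0.0627% and 0.0261% of all genes. At an unadjusted p under 0.05 there were 6, 23, 6, 12, 3 and 5 members in these lines, beside 3.55%, 11.5%, 3.34%, 6.75%, 2.59% and 4.06% of all genes, and DESeq2 called 2 members in K498A and 0 in the 5 other lines. In DE636AA the test called 3 members, each higher, beside 1.34% of all genes (0.69% higher). At an unadjusted p under 0.05 there were 30 in DE636AA, 20 higher and 10 lower, beside 17.6% of all genes. Among them were TIMP3 (0.48 ± 0.10, adjusted p = 0.0179) and BCKDHA (0.44 ± 0.11, adjusted p = 0.0418), given as log2 differences, DE636AA minus CLIP. BCKDHA had 25.1 ± 4.63 CPM in DE636AA siNT and 18.1 ± 0.919 CPM in CLIP siNT libraries (SD, n = 3 each). Without replicate 2 or without replicate 3 of every group, 0 members were called in DE636AA. The siNT means are also the denominators of the responses that chose the members.

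Known targets of NMD behaved otherwise in WT, GA-KH and E797R, whereas part of them also rose in the other UPF1 lines. No member is among 21 commonly used NMD targets or 9 NMD factors other than UPF1. Of the 21 targets 0 rose and 4 fell in WT, with a median log2 fold change of -0.11, whereas 18 rose and 2 fell in CLIP, with a median of 0.80 (edgeR). The response of 17 targets was lower in WT than in CLIP and of 0 higher, beside 8.08% and 3.77% of all genes. RP9P, for example, had 0.01 ± 0.15 in WT (adjusted p = 0.966) and rose by 2.28 ± 0.15 in CLIP (adjusted p = 1.43e-15, edgeR). Of the 9 factors 1 rose and 2 fell in WT, and 8 rose in CLIP. With 47 libraries 16 targets rose and 1 fell in CLIP, and 18 had a lower response in WT.

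Other lists without a member were counted in the same way, in WT and then in CLIP. ATF4 targets, of the response to amino acid shortage, had 7 of 26 genes higher and 3 lower in WT, and 15 higher and 2 lower in CLIP. Targets of p53 had 2 of 18 higher and 8 lower in WT, and 9 higher and 3 lower in CLIP (5 higher and 4 lower with 47 libraries). Genes of ERK output had 1 of 20 higher and 11 lower in WT, and 3 higher and 10 lower in CLIP. No list among these 3 was mostly higher in WT. In the other UPF1 lines the number of ATF4 targets that were higher ran from 6 in GA-KH (5 lower) to 14 in DE636AA (4 lower). FOXO targets had 6 of 19 higher and 1 lower in WT, and 10 higher and 3 lower in CLIP. MondoA targets had 3 of 8 higher and 2 lower in WT, and 4 higher and 1 lower in CLIP. Interferon-stimulated genes had 0 of 13 higher and 4 lower in WT, and 1 higher and 5 lower in CLIP. The DOK family had 1 of 3 genes higher and 1 lower in WT, and 1 higher and 0 lower in CLIP, and the stathmin family had 2 of 4 higher and 1 lower in both. Of 12 reference genes 4 were higher and 3 lower in WT as in CLIP, and RPLP0 and GUSB, both members, had the highest values of the 12.

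The members were also compared with other genes by their annotation. Of the 84 members with an entry in GENCODE 29, 83 code for protein. An annotated transcript of the NMD type was present in 46.4% of them, against 42.4% of other genes of the same level. Median GC content of the transcript was 54.1% in members and 47.6% in the others, and the median number of exons was 10 and 9. The members lie on many chromosomes, with 12 on chromosome 19 and 9 each on chromosomes 6, 12 and 17, which hold 806, 623, 627 and 691 of all genes of the same level. Exons of 35 members overlap another gene, 11 on the same strand, among them MCOLN1, ERLIN1, POLD1 and BCKDHA, and 27 on the opposite strand, among them PAQR6, SPRYD3, SURF1, CTSA, CTNS and UBXN6. Their counts may include reads of the neighbour.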

How the data were processed

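RNA-seq of 48 libraries was analysed from 1 deposited table of expected counts per gene. Per the submitters' processing notes the authors used cutadapt, STAR and RSEM with hg19, and DESeq2; versions and the strand setting of counting are not given in the sources used here. Expected counts were rounded to whole numbers. CPM values were computed from unrounded column sums and chose the members as stated above. Tests used edgeR 4.0.16 in R 4.3.3: TMM factors (0.951 to 1.03), the default filter on low counts (19129 genes), 1 coefficient per group over all 48 libraries, quasi-likelihood tests and Benjamini-Hochberg adjustment over all genes, called at 0.05. The fit was also run on simulated data, and the outcome is not given here. Alternatives were DESeq2 1.42.0, no filter, a replicate block, 12-library fits and left-out libraries.

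The members, lists and tests were chosen with earlier results of these data known; the lysosomal, mannose 6-phosphate, stalk and retromer lists, the roles and the 3′ UTR word were chosen after the values were seen. Named genes were the 10 members with the largest lowest response, the 4 with the highest level, members called different between WT and CLIP by the largest amounts, members called with siNT, the neighbours of the threshold and members of uncertain annotation; others with values are named by role; some genes are not reported here. With 3 libraries per group, p-values of the main fit rest on the spread between libraries of a group. That spread is pooled over all 16 groups and drawn towards that of other genes. Members were matched to GENCODE 29 (GRCh38, 84 found) by gene identifier without its version. RefSeq GRCh38.p14 promoters were matched by symbol or synonym (71 found). These coordinates are not of the build of the counts.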

Additional observations from a re-analysis of the deposited data

Results flagged for a closer look

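Responses that differed between a UPF1 line and CLIP by the test of the difference itself (edgeR, adjusted p under 0.05) are listed here with their values; no explanation was tested. The number of members with a different response was 19 for WT minus CLIP, 16 for K498A, 21 for DE636AA, 1 for R843C, 8 for A546H, 18 for GA-KH and 17 for E797R. The shares of all genes called in the same tests were 11.9% for WT, 13.6% for K498A, 17.9% for DE636AA, 0.753% for R843C, 5.63% for A546H, 14.3% for GA-KH and 13.3% for E797R, beside 22.4%, 18.8%, 24.7%, 1.18%, 9.41%, 21.2% and 20% of the members. Of the named members, the WT minus CLIP difference of log2 response was -1.39 for DHRS2, -0.87 for PAQR6, -0.84 for ULK3 and 0.77 for RAI2. All 7 comparisons share the CLIP libraries, and the rule puts a floor under each response. The same responses chose the members, so their shares are a description.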

How the results depend on the processing

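Of 157 values under alternatives, 109 stayed the same. For this a difference had to keep its direction and side of the threshold, and a count to stay within 1.5 times. The share of members with a 7- or 8-base site had to stay in its 95% confidence interval (31.0% to 51.7%). Of the other values 40 counts moved further, 8 differences lost the call and 0 reversed, and the cause was not tested. Many of the 109 are siNT counts of 0 that stayed at 0, as in every alternative for WT, R843C, A546H and E797R, and say little about stability. With a response minimum of 1.0 the rule found 23 genes. Leaving out replicate 1, 2 or 3 gave 68 to 92 genes by the rule, and members called different from CLIP of 6 to 16 in WT (17 without the CLIP siUPF1 library of replicate 2), 3 to 16 in E797R, 7 to 13 in GA-KH, 4 to 14 in K498A, 9 to 21 in DE636AA, 1 in A546H and 0 in R843C; with siNT it gave 0 to 2 in DE636AA. Fits of only the 12 libraries of the 2 lines, which are fewer samples, called 7 in WT, 5 in DE636AA and GA-KH, 3 in K498A and E797R and 0 in R843C and A546H. DESeq2 called 6 in R843C and 13 in A546H, and with siNT 2 in K498A and 7 in DE636AA. No filter on low counts gave 5 in R843C, and with siNT 3 in K498A, 8 in DE636AA and 1 in GA-KH. Without the CLIP siUPF1 library of replicate 2 there were 2 in R843C and 4 in A546H.

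Same-numbered libraries of siUPF1 and siNT did not deviate together throughout: 19 of 24 correlations were over 0.1, from -0.127 to 0.711. All 3 were in WT, K498A, DE636AA, R843C and GA-KH, but 1 of 3 in CLIP, which enters every difference. The numbers were therefore not taken as pairs, and the main fit leaves out the shared deviation seen in those other lines. The replicate block gives each replicate number an effect common to all lines and both siRNAs, so no fit models pairs within a line. With this block the count of members called different from CLIP was higher in every UPF1 line. The largest counts were 31 in DE636AA, 30 in GA-KH, 27 in K498A and 26 in WT. E797R had 21, A546H 16 and R843C 6. The share of all genes called was higher as well, for example 16.7% against 11.9% in WT. With siNT the block gave 2 members in K498A and 13 in DE636AA (4 of them lower). Of the named differences, DHRS2 lost its call without replicate 1 (-1.24, adjusted p = 0.15) and 2 (-1.28, adjusted p = 0.0624), RAI2 without replicate 3 (0.62, adjusted p = 0.147), and PAQR6 without any 1 replicate (-1.09 to -0.53), without CLIP siUPF1 replicate 2 (-0.55) and in the 12-library fit (-0.89), all by edgeR. With the 3′ UTR of the longest coding sequence, chosen after seeing the data, 38.6% of members and 10.1% of other genes had a 7- or 8-base site.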
